A study of Rattus norvegicus with 12 samples.

Results

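The genes described here encode the 3 DNA methyltransferases Dnmt1, Dnmt3a and Dnmt3b, the 3 TET dioxygenases Tet1, Tet2 and Tet3, and Uhrf1, the partner that brings Dnmt1 to replicated DNA. They were taken by gene name from a table of 30562 rat genes, in which each of the 7 names belonged to 1 locus. They were chosen because folate feeds DNA methylation. H9c2, a cell line of embryonic rat heart origin, gave the RNA for 12 libraries, in 4 groups of 3. The groups were cells given MMA (methylmalonic acid), cells given FA (folic acid), cells given both (labelled MMA_FA, here MMA+FA), and control cells (labelled Ctrl). The labels give no doses, exposure times or folate content of the medium and do not say whether replicates were separate cultures, so p-values measure only the spread between these samples. H9c2 is a single cell line, and the label calls the cells cardiomyocytes.

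DNA methylation in mammals is the addition of a methyl group to cytosine, mostly where cytosine is followed by guanine (CpG). Dnmt3a and Dnmt3b write new marks, whereas Dnmt1 copies marks onto the new strand behind the replication fork, after Uhrf1 has bound the hemimethylated site. TET enzymes oxidize 5-methylcytosine, which starts its removal, and need iron, oxygen and 2-oxoglutarate. The methyl group comes from S-adenosylmethionine, which the methionine cycle remakes with the help of folate, and this link is the reason to look at these genes where folic acid is the treatment. RNA levels were measured, and neither protein nor DNA methylation was.

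The values were TPM, a share of each library's total scaled by transcript length, so levels can be set side by side between genes but the depth of a library is unknown. Genes whose mean reached 1 TPM, 12263 in all, were tested in limma on log2(TPM + 1), and a gene was called where its adjusted p in a comparison (Benjamini-Hochberg) was under 0.05. The filter kept 6 of the 7 genes, and Tet1 stayed below it. Between 12070 and 12286 genes reached 1 TPM in a library. Mitochondrially encoded genes held between 10.3% and 11.4% of TPM in MMA libraries, 8.78% and 10.4% in FA libraries, 10.1% and 11.1% in MMA+FA libraries, and 9.34% and 9.87% in control libraries. The share was higher in every MMA and MMA+FA library than in any control library, and each call of a member given below held with these genes left out. Markers of heart muscle were mostly lacking: 3 of 12 were tested, and Myh6, Myh7 and Ryr2 stayed at or below 0.11 TPM in every library. Of 9 skeletal muscle markers 5 were tested, with Myod1 between 28.2 and 74.2 TPM. Of 6 endothelial markers 0 were tested, as against 1 of 6 for leukocytes, 1 of 5 for epithelium and 7 of 9 for fibroblasts. The summed level of the cardiomyocyte list lay between 84.6 and 104 TPM in MMA+FA libraries and between 32.5 and 38.2 TPM in control libraries. Tnnt2, a cardiac troponin gene on that list, averaged 73.6 ± 9.53 TPM with MMA+FA and 16.1 ± 2.41 TPM in control (SD, n = 3 each). The sum of the skeletal muscle list lay between 65.6 and 75.5 TPM in MMA+FA libraries and between 103 and 115 TPM in control libraries. Neither sum stood for its whole list. Of 3 tested cardiomyocyte markers, 1 was called higher and 0 lower with MMA+FA than in control. Gata4 averaged 5.69 TPM with MMA+FA and 6.41 TPM in control. Of 5 tested skeletal muscle markers, 1 was called higher and 1 lower. Myod1 averaged 31.7 TPM with MMA+FA and 72.65 TPM in control. The means of Tnnt1 and Tnnt3 were also lower, and those of Myog and Des higher. The part of these markers in the results below was not tested.

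The promoter sequences of Uhrf1, Dnmt1 and Dnmt3a are shown because the first 2 varied together across libraries and the third did not follow them as closely. For deviations from group means, Dnmt3a still had r = 0.78 with Dnmt1 and r = 0.70 with Uhrf1. They come from RefSeq on build GRCr8, whereas the expression values were made on mRatBN7.2. The windows run from 250 bases before to 50 bases after an annotated start, and 6 of the 7 genes had at least 1 window. Capitals mark matches to TTTNNCGC, a loose form of the site of E2F factors, on either strand. Uhrf1 has 3 annotated starts, and the sequence shown is the upstream part of the window with most matches, chr9:1222936-1223185 on the plus strand. The Dnmt1 stretch, chr8:27762800-27762829 on the minus strand, runs from base 13 to base 42 after the start and holds 2 overlapping matches. The Dnmt3a sequence, chr6:32598352-32598601 on the plus strand, holds 0 matches.
Uhrf1: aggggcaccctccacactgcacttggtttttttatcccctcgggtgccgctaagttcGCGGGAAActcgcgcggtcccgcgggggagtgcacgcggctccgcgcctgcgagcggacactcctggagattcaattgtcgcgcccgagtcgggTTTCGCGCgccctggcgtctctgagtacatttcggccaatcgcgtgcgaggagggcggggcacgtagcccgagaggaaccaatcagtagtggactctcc
Dnmt1: ttggtttccgcgcGCGCGAAAAAgccgggg
Dnmt3a: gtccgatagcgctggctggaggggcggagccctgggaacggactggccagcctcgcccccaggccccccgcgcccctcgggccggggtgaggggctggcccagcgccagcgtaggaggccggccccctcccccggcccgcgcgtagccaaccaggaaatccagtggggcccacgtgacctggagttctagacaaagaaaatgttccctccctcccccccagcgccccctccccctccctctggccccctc

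In the Uhrf1 window the matches begin at bases -193 and -99 relative to the start. Another Uhrf1 window holds 1 match, and the Tet1, Tet2 and Tet3 windows hold 0. Of 33469 windows in the rat table, 4.9% hold a match, and a match says nothing of binding. The ratio of observed to expected CpG was 1.07 in the Uhrf1 window shown, 1.09 in the Tet2 window, 0.58 in the Dnmt1 window and 0.53 in the Dnmt3a window. The median of all windows was 0.39, and 34.4% reached 0.6. The motif itself holds a CpG, and the share of CpG-rich windows with a match was not measured. The Uhrf1 window and the Dnmt1 stretch were picked for their matches to TTTNNCGC. The patterns CCAAT and GGGCGG were also searched on either strand, and 37.5% and 33.1% of all windows hold them. The full windows of Uhrf1 (the one shown), Dnmt1 and Dnmt3a hold 2, 2 and 0 matches to CCAAT, and 3, 1 and 2 to GGGCGG. Any link of these matches to how the genes varied was not tested.

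Uhrf1 had the highest level of the 7 genes, with a mean of 58.3 ± 6.29 TPM over the 12 libraries (SD). Dnmt3a followed with 20.2 ± 2.38 TPM and Dnmt1 with 18.9 ± 1.71 TPM. These neighbours overlapped, with libraries from 16.3 to 23.9 TPM for Dnmt3a and from 15.9 to 21.1 TPM for Dnmt1. Below them came Tet3 at 8.002 ± 1.04 TPM, Tet2 at 2.31 ± 0.212 TPM, Dnmt3b at 1.12 ± 0.256 TPM and Tet1 at 0.567 ± 0.0748 TPM. No other neighbours in this order overlapped in any library. Transcripts of Dnmt1 and of Dnmt3a were thus of like abundance, and Tet3 made up most of the TET transcripts.

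**Figure D1:**
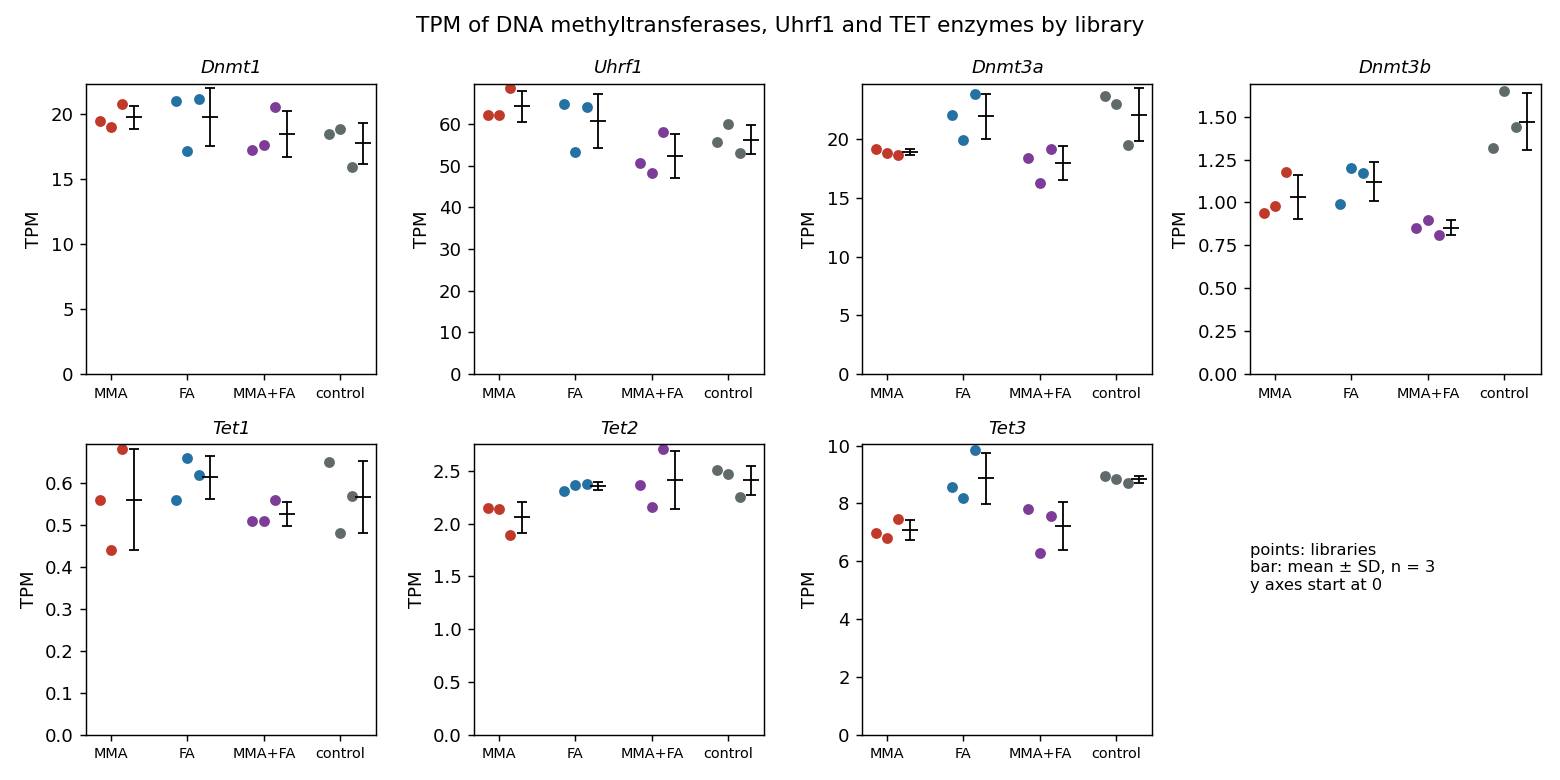
TPM of each gene (y axis, from 0) in the 3 libraries of each group (points), with mean ± SD beside them (n = 3). Dnmt3b lies between 0.81 and 0.90 TPM in MMA+FA libraries and between 1.32 and 1.65 TPM in control libraries, and Tet3 and Dnmt3a are lower in all libraries with MMA than in those without.

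With MMA alone, Tet3 was the 1 member that passed the test. The comparisons of MMA, FA and MMA+FA with control share the same 3 control libraries. Tet3, the TET gene with the highest RNA level in these cells, had 6.97, 6.81 and 7.46 TPM in MMA libraries, against 8.95, 8.84 and 8.72 TPM in control libraries. All MMA libraries lay below all control libraries, and the log2 difference was -0.28 (SE 0.08, adjusted p = 0.0331). The median difference of all tested genes with MMA was -0.07 on the log2 scale, and relative to it the difference of Tet3 was -0.21. With libraries rescaled by median ratios, so that the typical gene is level between groups, it no longer passed (-0.21, adjusted p = 0.0910) and the same held with any 1 of the 6 libraries left out (adjusted p between 0.0571 and 0.0931) and without a filter (adjusted p = 0.0669). In bulk RNA, a change in the share of cells that express a gene and a change in the RNA per cell cannot be told apart.

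The de novo enzymes were also below control with MMA, without passing the test. Dnmt3a had 19.2, 18.9 and 18.7 TPM with MMA, against 23.7, 23.0 and 19.5 TPM in control (log2 -0.21, SE 0.08, adjusted p = 0.0895). Dnmt3b had 0.94, 0.98 and 1.18 TPM with MMA, against 1.32, 1.65 and 1.44 TPM in control (log2 -0.28, SE 0.11, adjusted p = 0.0823). Neither gene's groups overlapped. All log2 differences here are of log2(TPM + 1). The pseudocount of 1 therefore understates the fold change of Dnmt3b, which lies near 1 TPM, more than that of Dnmt3a. The maintenance pair went the other way: Uhrf1 had 62.1, 62.0 and 68.6 TPM with MMA, against 55.6, 59.9 and 53.0 TPM in control (log2 0.19, SE 0.09, adjusted p = 0.131). Dnmt1 had 19.4, 19 and 20.7 TPM with MMA, against 18.4, 18.8 and 15.9 TPM in control (log2 0.15, SE 0.09, adjusted p = 0.259). Tet2 was at 2.15, 2.14 and 1.89 TPM with MMA, against 2.51, 2.47 and 2.25 TPM in control (log2 -0.16, SE 0.09, adjusted p = 0.232). In all, limma called 0 of the 6 tested members higher and 1 lower, where it called 20.4% of all tested genes, 3.85% higher and 16.5% lower. The libraries of both groups were apart for all 6 members, 2 higher and 4 lower, and for 45.3% of all tested genes (10.5% higher and 34.8% lower). Dnmt3a passed without control replicate 3 (-0.29, adjusted p = 0.0417). Dnmt3b passed with a filter at a mean of 0.1 TPM (adjusted p = 0.0396), without a filter (adjusted p = 0.0363) and without the mean-variance trend (adjusted p = 0.0156).

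With FA alone, no member passed the test, and 12.4% of all tested genes did (3.67% higher and 8.7% lower). Leaving out 1 library moved that count: 214 genes were called without control replicate 3 and 2571 without FA replicate 2, against 1517 with all libraries. Dnmt1 had 21.0, 17.1 and 21.1 TPM with FA, against 18.4, 18.8 and 15.9 TPM in control, and the groups overlapped (log2 0.15, 95% interval from -0.05 to 0.34, adjusted p = 0.293). Uhrf1 had 64.7, 53.2 and 64.0 TPM with FA, against 55.6, 59.9 and 53.0 TPM in control (log2 0.10, 95% interval from -0.08 to 0.29, adjusted p = 0.431). FA replicate 2 was the lowest FA library for both genes. Dnmt3a averaged 22.0 ± 1.95 TPM with FA and 22.1 ± 2.25 TPM in control (SD, n = 3 each; log2 -0.01, 95% interval from -0.19 to 0.17, adjusted p = 0.965), and Tet3 8.87 ± 0.882 TPM with FA and 8.84 ± 0.115 TPM in control (log2 0.00, 95% interval from -0.18 to 0.18, adjusted p = 0.996). Tet2 averaged 2.35 ± 0.0379 TPM with FA and 2.41 ± 0.140 TPM in control (log2 -0.02, 95% interval from -0.22 to 0.17, adjusted p = 0.885). Dnmt3b was the 1 member whose groups did not overlap, at 0.99, 1.20 and 1.17 TPM with FA, against 1.32, 1.65 and 1.44 TPM in control (log2 -0.22, SE 0.11, adjusted p = 0.184). Groups did not overlap for 33.7% of all tested genes (9.43% higher and 24.3% lower).

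With MMA and FA together, 3 members were lower than in control and 0 were higher, among 39.3% of all tested genes called (6.67% higher and 32.6% lower). Dnmt3b, the de novo enzyme that is active mainly in early development, had 0.85, 0.90 and 0.81 TPM in MMA+FA libraries, against 1.32, 1.65 and 1.44 TPM in control libraries. The groups did not overlap, with a difference in log2(TPM + 1) of -0.41 (SE 0.11, adjusted p = 0.00980). At this level the pseudocount of 1 understates the fold change, so its size cannot be set beside those of Dnmt3a and Tet3. Dnmt3a, the de novo gene with more RNA, had 18.5, 16.3 and 19.1 TPM with MMA+FA, against 23.7, 23.0 and 19.5 TPM in control (log2 -0.28, SE 0.08, adjusted p = 0.0178). Tet3 had 7.82, 6.27 and 7.57 TPM with MMA+FA, against 8.95, 8.84 and 8.72 TPM in control (log2 -0.26, SE 0.08, adjusted p = 0.0257). For these 3 members the libraries of both groups were apart, as for 53.7% of all tested genes (10.4% higher and 43.4% lower).

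The median difference of all tested genes with MMA+FA was -0.12 on the log2 scale. Relative to that median, the differences were -0.30 for Dnmt3b, -0.17 for Dnmt3a and -0.15 for Tet3. Under median-ratio scaling Dnmt3b kept its call (-0.34, adjusted p = 0.0314), whereas Dnmt3a (-0.16, adjusted p = 0.148) and Tet3 (-0.15, adjusted p = 0.174) did not pass. Dnmt3b also kept its call with any 1 of the 6 libraries left out (adjusted p between 0.0143 and 0.0430). Dnmt3a did not pass without MMA+FA replicate 2 (-0.22, adjusted p = 0.0753), control replicate 1 (-0.23, adjusted p = 0.0751) or control replicate 2 (-0.25, adjusted p = 0.0630). Tet3 did not pass without MMA+FA replicate 2 (-0.18, adjusted p = 0.104) or without control replicate 1, 2 or 3 (adjusted p = 0.0687, 0.0610 and 0.0574), and it missed the threshold without a filter (adjusted p = 0.0529). Dnmt1 averaged 18.4 ± 1.79 TPM with MMA+FA and 17.7 ± 1.55 TPM in control (SD, n = 3 each; log2 0.05, 95% interval from -0.14 to 0.25), and Uhrf1 52.3 ± 5.23 TPM with MMA+FA and 56.2 ± 3.49 TPM in control (log2 -0.10, 95% interval from -0.29 to 0.08). Tet2 averaged 2.41 ± 0.278 TPM with MMA+FA and 2.41 ± 0.140 TPM in control. None of these 3 passed (adjusted p = 0.670, 0.354 and 0.995).

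**Figure D2:**
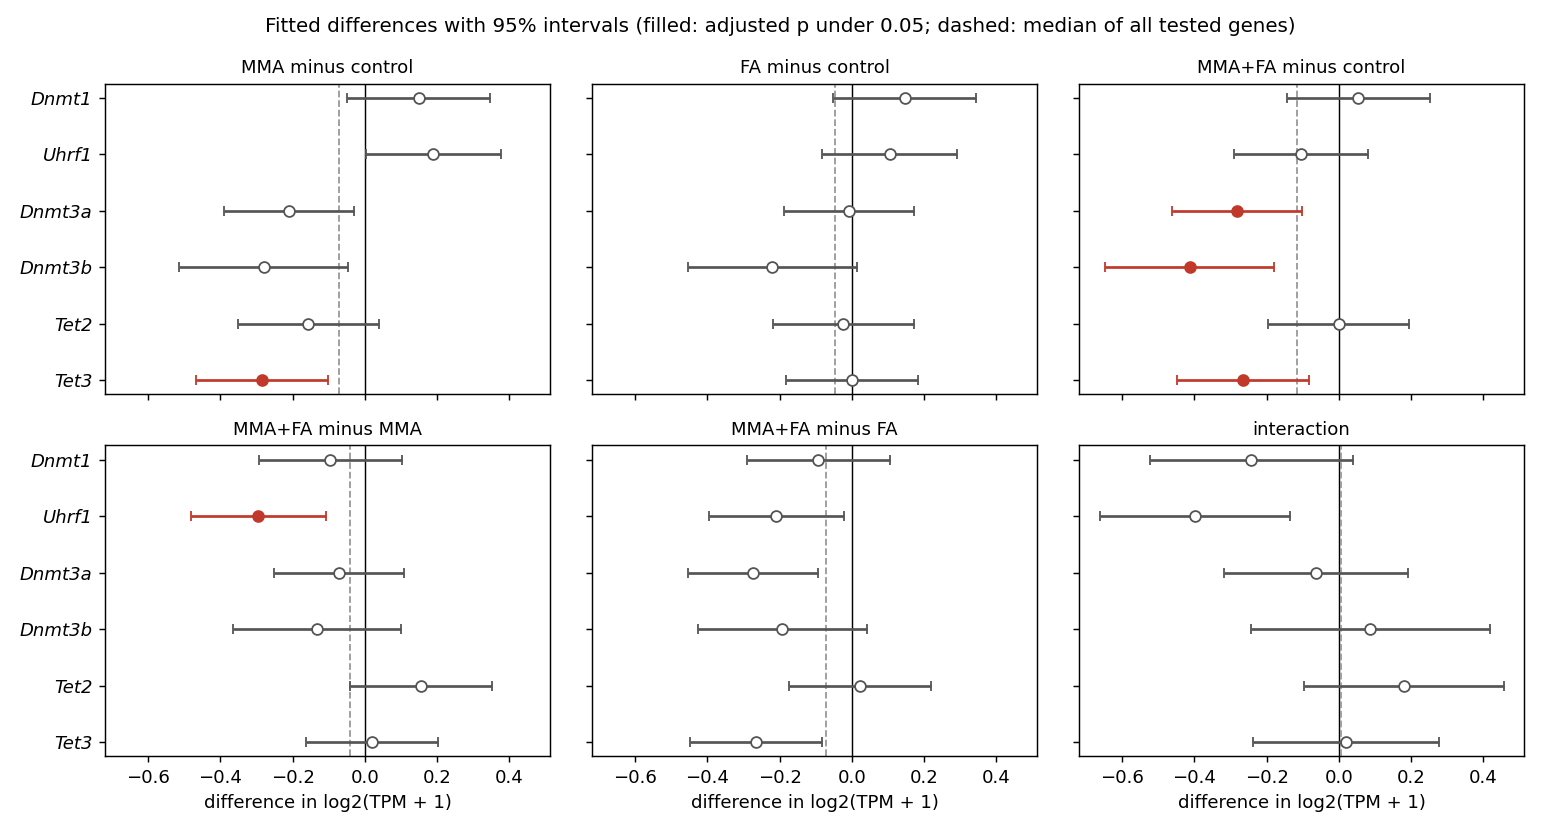
Difference in log2(TPM + 1) of the 6 tested members (points, with 95% intervals) in 5 comparisons and the interaction, with the median of all tested genes as a dashed line. Filled points passed an adjusted p under 0.05: Tet3 with MMA, Dnmt3a, Dnmt3b and Tet3 with MMA+FA, and Uhrf1 where FA was added to MMA.

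Where FA was added to MMA, Uhrf1 was lower and was the only member called. Uhrf1 had 50.6, 48.1 and 58.2 TPM in MMA+FA libraries, against 62.1, 62.0 and 68.6 TPM in MMA libraries (log2 -0.29, SE 0.09, adjusted p = 0.0396), among 13.7% of all tested genes called (4.19% higher and 9.53% lower). The groups did not overlap, but the gene did not pass after median-ratio scaling (-0.25, adjusted p = 0.0778) or with any 1 of 5 libraries left out: MMA replicate 1, 2 or 3 (adjusted p = 0.0802, 0.0818 and 0.105) and MMA+FA replicate 1 or 2 (adjusted p = 0.112 and 0.139). It was also lost with a filter at a mean of 0.1 TPM (adjusted p = 0.0531), without a filter (adjusted p = 0.0858) and without the mean-variance trend (adjusted p = 0.0589). Tet2 was at 2.37, 2.16 and 2.71 TPM with MMA+FA, against 2.15, 2.14 and 1.89 TPM with MMA (log2 0.16, SE 0.09, adjusted p = 0.289). Dnmt1, Dnmt3a, Dnmt3b and Tet3 had log2 differences of -0.10, -0.07, -0.13 and 0.02, with adjusted p-values between 0.456 and 0.903. Groups did not overlap for 3 members, Uhrf1 and Dnmt3b lower and Tet2 higher, and for 32.7% of all tested genes (10.7% higher and 22% lower).

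Where MMA was added to FA, no member was called, against 10.5% of all tested genes (1.6% higher and 8.9% lower). Over all genes, 357 were called without FA replicate 1 and 2010 without FA replicate 2, against 1288 with all libraries. The log2 differences were -0.27 for Dnmt3a (SE 0.08, adjusted p = 0.0532) and -0.27 for Tet3 (SE 0.08, adjusted p = 0.0628), both with groups that did not overlap. Dnmt3b was the third such member, among 28.7% of all tested genes (5.07% higher and 23.7% lower). Uhrf1 had a difference of -0.21 (SE 0.09, adjusted p = 0.130), Dnmt3b of -0.19 (SE 0.11, adjusted p = 0.252), Dnmt1 of -0.09 and Tet2 of 0.02. Without FA replicate 2 the number called was 3, with Dnmt3a at -0.34 (adjusted p = 0.0235), Tet3 at -0.32 (adjusted p = 0.0359) and Uhrf1 at -0.30 (adjusted p = 0.0265).

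The interaction asks whether the effect of MMA differed between cells with and without FA. No member passed, and 2.41% of all tested genes did (0.938% above and 1.47% below 0). Over all genes, 85 were called without control replicate 1 and 496 without FA replicate 2, against 295 with all libraries. Uhrf1 had the interaction of greatest size among the 6 members, at -0.40 (SE 0.12, adjusted p = 0.111). Its mean was 52.3 ± 5.23 TPM with MMA+FA and 60.7 ± 6.46 TPM with FA, and 64.2 ± 3.77 TPM with MMA and 56.2 ± 3.49 TPM in control (SD, n = 3 each). Leaving out FA replicate 2 gave -0.49 (adjusted p = 0.0289). The interaction was -0.24 for Dnmt1 (SE 0.13, adjusted p = 0.361), 0.18 for Tet2 (SE 0.13, adjusted p = 0.510), 0.09 for Dnmt3b, -0.06 for Dnmt3a and 0.02 for Tet3.

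Averaged over both FA states, Dnmt3a, Dnmt3b and Tet3 were lower with MMA. Tet3 averaged 7.15 ± 0.573 TPM in the 6 libraries with MMA and 8.85 ± 0.563 TPM in the 6 without (log2 -0.27, SE 0.06, adjusted p = 0.00619). Dnmt3a averaged 18.4 ± 1.07 TPM with MMA and 22.0 ± 1.88 TPM without (log2 -0.24, SE 0.06, adjusted p = 0.0101). For both genes every library with MMA lay below every library without it, the highest being 7.82 TPM against a lowest of 8.17 TPM for Tet3, and 19.2 TPM against 19.5 TPM for Dnmt3a. The libraries were apart in this way for 6.11% of all tested genes (0.432% higher and 5.68% lower). Dnmt3b averaged 0.943 ± 0.131 TPM with MMA and 1.29 ± 0.230 TPM without (log2 -0.24, SE 0.08, adjusted p = 0.0342), with overlapping libraries. The pseudocount of 1 understates this fold change more than that of Dnmt3a. In this comparison 3 of 6 members were lower and 0 higher, and 30.1% of all tested genes were called (4.13% higher and 26% lower). These comparisons use the same libraries as the ones above and are no separate evidence.

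The pooled calls of Tet3 and Dnmt3a held with any 1 of the 12 libraries left out, with adjusted p-values from 0.00456 to 0.0173 for Tet3 and from 0.00535 to 0.0290 for Dnmt3a. Under median-ratio scaling Tet3 kept its call (-0.20, adjusted p = 0.0241), whereas Dnmt3a (-0.17, adjusted p = 0.0525) and Dnmt3b (-0.19, adjusted p = 0.0910) did not. The adjusted p of Dnmt3b lay between 0.0350 and 0.0813 in such fits, with the call held in 3 of 12 and lost without any of MMA replicates 1 and 2, FA replicates 2 and 3, MMA+FA replicates 1, 2 and 3, and control replicates 2 and 3. Dnmt1 (19.1 ± 1.45 TPM with MMA and 18.7 ± 2.06 TPM without), Uhrf1 (58.3 ± 7.70 TPM with MMA and 58.4 ± 5.25 TPM without) and Tet2 (2.24 ± 0.277 TPM with MMA and 2.38 ± 0.0968 TPM without) did not pass (adjusted p = 0.771, 0.923 and 0.450).

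Averaged over both MMA states, FA called no member, where 24.9% of all tested genes were called (6.5% higher and 18.4% lower). The libraries were apart for 0 members and for 4.01% of all tested genes (1.51% higher and 2.5% lower). Dnmt3b averaged 0.987 ± 0.165 TPM in the 6 libraries with FA and 1.25 ± 0.274 TPM in the 6 without (log2 -0.18, SE 0.08, adjusted p = 0.108). It passed without a filter (adjusted p = 0.0483) and without the mean-variance trend (adjusted p = 0.0206). The 95% intervals of the other members reached from -0.17 to 0.09 for Dnmt3a, from -0.12 to 0.14 for Tet3, from -0.11 to 0.17 for Dnmt1, from -0.23 to 0.04 for Uhrf1 and from -0.07 to 0.20 for Tet2.

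Tet1, the TET enzyme known from embryonic stem cells, was below the filter. It lay between 0.44 and 0.68 TPM with MMA, between 0.56 and 0.66 TPM with FA, between 0.51 and 0.56 TPM with MMA+FA and between 0.48 and 0.65 TPM in control, so that all groups overlapped with control. With the filter lowered to a mean of 0.1 TPM, its log2 differences from control were -0.01 for MMA libraries, 0.04 for FA libraries and -0.04 for MMA+FA libraries (adjusted p = 0.968, 0.771 and 0.768). At this level the pseudocount of 1 dominates the scale and understates any fold change.

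The balance among the members does not depend on how libraries are scaled, since all come from the same library. Dnmt1 made up 49.7 ± 1.21% of the summed DNMT TPM with MMA, 46.1 ± 1.47% with FA, 49.4 ± 2.02% with MMA+FA and 42.9 ± 0.490% in control (SD, n = 3 each). Every treated library, from 44.7% upwards, lay above the control libraries, which reached 43.2%. Dnmt3a made up 47.7 ± 1.47% with MMA, 51.3 ± 1.06% with FA, 48.2 ± 2.02% with MMA+FA and 53.5 ± 0.959% in control, and Dnmt3b between 2.00% and 3.90% in every library. The ratio of Dnmt1 to Dnmt3a was 1.04 ± 0.0585 with MMA, 0.898 ± 0.0476 with FA, 1.03 ± 0.0827 with MMA+FA and 0.803 ± 0.0233 in control. These shares are given as a description, without a test, and how often shares of other genes separate in this way was not measured.

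Uhrf1 was less abundant relative to Dnmt1 where both acids were given. The ratio of Uhrf1 to Dnmt1 was 2.84 ± 0.103 with MMA+FA, 3.26 ± 0.0570 with MMA, 3.07 ± 0.0397 with FA and 3.18 ± 0.156 in control. The 3 MMA+FA libraries lay between 2.73 and 2.94, below the lowest of the other libraries at 3.02. Tet3 held 73.0 ± 1.25% of the summed TET TPM with MMA, 74.9 ± 1.86% with FA, 71.0 ± 1.80% with MMA+FA and 74.8 ± 0.841% in control. Summed DNMT over summed TET TPM was 4.09 ± 0.0459 with MMA, 3.62 ± 0.212 with FA, 3.68 ± 0.247 with MMA+FA and 3.49 ± 0.259 in control. MMA libraries, from 4.05 upwards, lay above all others, which reached 3.90. These ratios were not tested either. How often ratios of other genes set 1 group apart from the rest was not measured, so these separations cannot be called unusual.

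**Figure D3:**
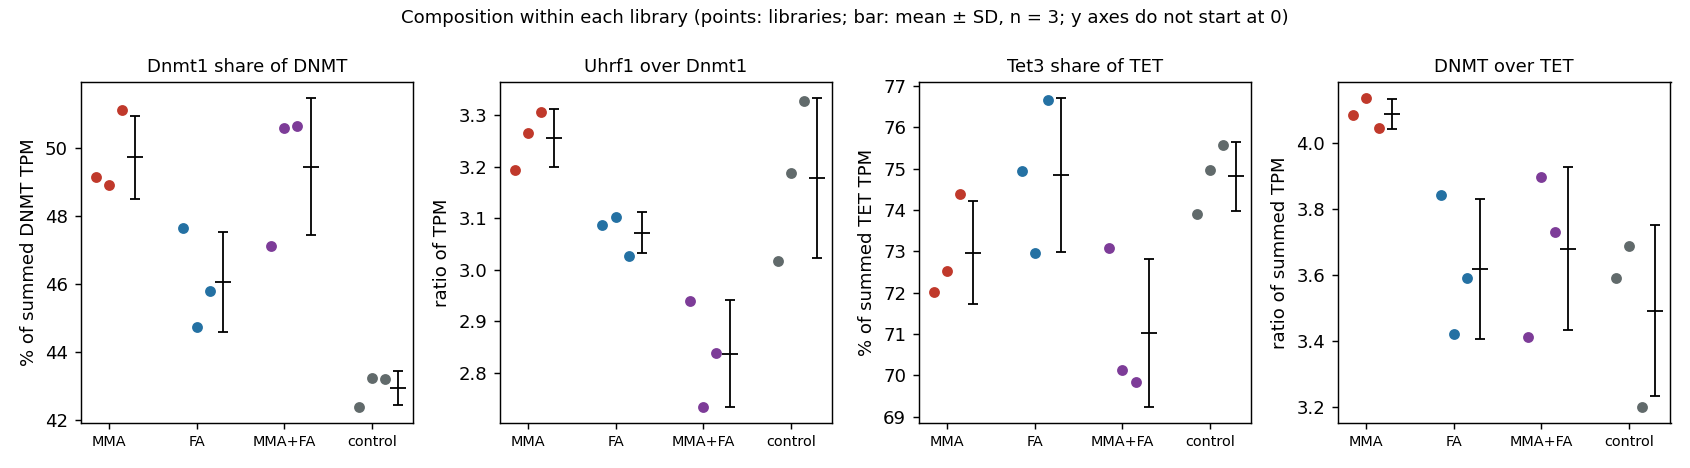
Dnmt1 as a share of summed DNMT TPM, the ratio of Uhrf1 to Dnmt1, Tet3 as a share of summed TET TPM and the ratio of summed DNMT to summed TET TPM (y axes, not from 0) in each library, with mean ± SD (n = 3). The Dnmt1 share is at or below 43.2% in control libraries and at or above 44.7% in all others, and the Uhrf1 to Dnmt1 ratio is at or below 2.94 in MMA+FA libraries.

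Across the 12 libraries Uhrf1 varied most closely with Dnmt1, and Dnmt3a with Tet3, as a description over libraries that share group effects. Uhrf1 and Dnmt1 varied together with Pearson's r = 0.83 and Spearman's rho = 0.87 on log2(TPM + 1), with r = 0.93 for deviations from group means, and with r = 0.86 without the 2 libraries farthest from the median of Dnmt1. Dnmt3a and Tet3 had r = 0.88 and rho = 0.87, with r = 0.71 for deviations from group means and r = 0.82 without the 2 libraries farthest from the median of Dnmt3a. Over all libraries these are the 2 highest r of 21 pairs, and the 2 pairs were picked after their values were seen. Dnmt1 and Dnmt3a had r = 0.34 over all libraries and r = 0.78 for deviations from group means, so that they varied together within groups and less so between them. For such deviations Uhrf1 had r = 0.70 with Dnmt3a and r = 0.62 with Tet3. Within groups, Dnmt3a thus did not stand apart from Dnmt1 and Uhrf1. Uhrf1 and Tet2 had r = -0.28 over all libraries but r = 0.35 for deviations from group means. Without the 2 libraries farthest from the median of Tet2 their r was 0.01.

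**Figure D4:**
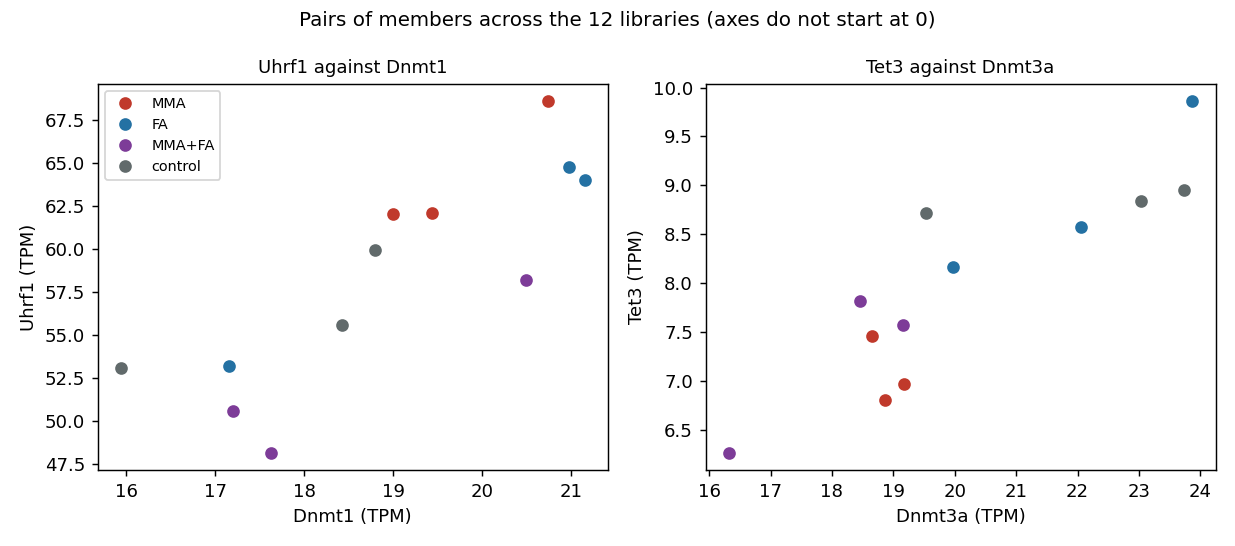
Uhrf1 against Dnmt1 (left) and Tet3 against Dnmt3a (right), in TPM, for the 12 libraries coloured by group (axes not from 0). MMA+FA libraries have less Uhrf1 at a given level of Dnmt1 than the other groups, and all libraries with MMA lie at or below 7.82 TPM of Tet3.

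The genes whose pattern was most like that of a member were sought among 9544 others with a mean of at least 5 TPM (9545 for the 2 members below that level). For Uhrf1 these were Lmnb2, which encodes lamin B2, Rfwd3, a ubiquitin ligase gene of DNA repair, and Cep89, with r = 0.97, 0.96 and 0.95 over the 12 libraries. For Dnmt1 they were the gamma-tubulin gene Tubg1 (r = 0.91), Lig1, the DNA ligase of replication (r = 0.90), and the lysine methyltransferase gene Setd6 (r = 0.90). For Dnmt3a they were the kinase gene Mark2, the acetyltransferase gene Kat2a and Mier2, with r = 0.95, 0.94 and 0.94. For Tet3 they were Dlgap4, the dynein heavy chain gene Dync1h1 and Ap5z1, with r = 0.96 each. Tet2 was most like Pcyt2, Ddx46 and Phc3 (r = 0.94, 0.93 and 0.92), and Dnmt3b most like the interferon response gene Irf9, Ap1ar and Sec23ip (r = 0.94, 0.92 and 0.92). The highest of so many r values over 12 libraries are high by selection.

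Because Dnmt1 and Uhrf1 act at the replication fork, genes of DNA replication were set beside them. Over all tested genes, 3.85% were called higher and 16.5% lower with MMA, 3.67% and 8.7% with FA, and 6.67% and 32.6% with MMA+FA. Of 29 tested replication genes, 14 were higher and 0 lower with MMA than in control (median log2 0.28), 2 higher and 1 lower with FA (median 0.07), and 7 higher and 4 lower with MMA+FA (median 0.08), or 12 and 2 under median-ratio scaling. Tk1, a thymidine kinase, had 49.5 ± 5.34 TPM with MMA, 42.5 ± 1.88 TPM with FA, 44.1 ± 6.84 TPM with MMA+FA and 28.0 ± 3.41 TPM in control. On the log2 scale, Uhrf1 minus the median replication gene was 1.65 ± 0.0937 with MMA, 1.81 ± 0.0620 with FA, 1.56 ± 0.0174 with MMA+FA and 1.67 ± 0.0470 in control. For Dnmt1 it was -0.01 ± 0.0675 with MMA, 0.24 ± 0.0698 with FA, 0.10 ± 0.0488 with MMA+FA and 0.06 ± 0.0674 in control. Tet3 was at -1.37 ± 0.0661 with MMA, -0.83 ± 0.0986 with FA, -1.14 ± 0.124 with MMA+FA and -0.87 ± 0.128 in control. The median replication gene was itself at 4.38 ± 0.0590 with MMA and 4.17 ± 0.134 in control. Subtracting it therefore widened the gap of Tet3 between MMA and control. By the same step the means of Uhrf1 and Dnmt1 were no longer higher with MMA than in control. Of 12 mitosis genes, 7 were higher and 0 lower with MMA, 0 and 0 with FA, and 0 higher and 11 lower with MMA+FA, each against control (0 and 4 with MMA+FA under median-ratio scaling). All 12 were lower with MMA+FA than with MMA (median -0.52), where 9.53% of all tested genes were called lower. Uhrf1 was called in that comparison. The part of cell cycle transcripts in the results of the members was not tested. With 1 library left out, between 5 (without MMA replicate 3 or control replicate 3) and 12 replication genes were higher with MMA, and between 0 (without control replicate 3) and 5 (without FA replicate 2) with FA. Between 3 (without control replicate 1; 4 without MMA replicate 3) and 7 mitosis genes were higher with MMA in such fits, and 11 were under median-ratio scaling.

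Among partners of maintenance methylation, 2 of 12 were higher and 1 lower with MMA (median -0.03), and 0 higher and 3 lower with MMA+FA (median -0.03). The shares of all tested genes were 3.85% higher and 16.5% lower with MMA, and 6.67% and 32.6% with MMA+FA. The counts of lower partners did not exceed those shares. Under median-ratio scaling the partner counts were 4 and 0 with MMA, and 1 and 1 with MMA+FA. With FA alone 0 were higher and 1 lower, or 1 and 0 under median-ratio scaling. Pcna, the replication clamp that Dnmt1 binds, had 141 ± 6.18 TPM with MMA and 120 ± 4.68 TPM in control (log2 0.23, SE 0.07, adjusted p = 0.0336), a call kept in 2 of 6 fits with 1 library left out (adjusted p between 0.0450 and 0.120). Pclaf, a clamp-associated factor whose symbol belongs to 2 loci that can share reads, was 0.63 higher with MMA (adjusted p = 0.0123), and its size of change is uncertain. Usp7, a deubiquitinase that binds Dnmt1 and Uhrf1, was lower with MMA, FA and MMA+FA (log2 -0.17, -0.17 and -0.23, adjusted p = 0.0141, 0.0223 and 0.00142). None of these 3 calls held under median-ratio scaling (adjusted p = 0.118, 0.0594 and 0.0638), and with 1 library left out those with MMA and FA held in 4 and 2 of 6 fits. Uhrf2, the relative of Uhrf1, had 10.02 ± 0.0814 TPM with MMA+FA and 13.2 ± 1.00 TPM in control (log2 -0.36, SE 0.07, adjusted p = 0.00151). Against MMA its difference was -0.26 (adjusted p = 0.0259), which did not pass under median-ratio scaling (adjusted p = 0.0503) and passed in 1 of 6 fits with 1 library left out. The remodeller gene Hells, whose product is needed for normal methylation in mouse, had 7.68 ± 0.481 TPM with MMA, 6.66 ± 1.08 TPM with MMA+FA and 7.77 ± 0.270 TPM in control and was not called against control in either.

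Of 10 tested factors that guide de novo methylation, 0 were called higher against control in the values as deposited. With MMA+FA 6 of 10 tested were lower and 0 higher (median -0.23), or 3 and 0 under median-ratio scaling. Of all tested genes 32.6% were lower and 6.67% higher with MMA+FA (median -0.12). The lower share was 16.5% with MMA and 8.7% with FA, and the higher share 3.85% and 3.67%. Setd2, which writes the histone H3 lysine methylation that Dnmt3a and Dnmt3b can read, had 18.9 ± 1.24 TPM with MMA+FA and 25.7 ± 0.721 TPM in control (log2 -0.42, SE 0.06, adjusted p = 0.000372). Nsd2, another histone methyltransferase gene, had 54.9 ± 1.46 TPM with MMA+FA and 67.9 ± 1.26 TPM in control (log2 -0.30, adjusted p = 0.000295), and Ezh2 had 53.9 ± 4.32 TPM with MMA+FA and 65.5 ± 3.05 TPM in control (log2 -0.28, adjusted p = 0.00258). With MMA alone 2 were lower, Setd2 (-0.29, adjusted p = 0.00843) and Setdb1 (-0.19, adjusted p = 0.0265). Under median-ratio scaling 1 was higher and 1 lower with MMA, and Setdb1 did not pass (adjusted p = 0.149). With 1 library left out Setdb1 passed in 1 of 6 fits. With FA alone 1 was lower, Setd2 (-0.22, adjusted p = 0.0358), and 0 under median-ratio scaling (Setd2 adjusted p = 0.0586). That call held in 1 of 6 fits with 1 library left out (adjusted p between 0.0362 and 0.113). Dnmt3l, the cofactor of the de novo enzymes in mouse germ cells, was at or below 0.13 TPM in every library and was not tested.

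Readers of methylated DNA were lower with MMA in 4 of 9 cases and higher in 0 (median -0.20), and with MMA+FA in 5 and 0 (median -0.19). Of all tested genes 16.5% were lower with MMA (median -0.07) and 32.6% with MMA+FA (median -0.12). Under median-ratio scaling 2 readers were lower with MMA and 4 with MMA+FA, and with 1 library left out between 1 and 4 were lower with MMA. With FA alone 0 of 9 passed. Zbtb4 had 15.4 ± 0.734 TPM with MMA, 15.9 ± 0.511 TPM with MMA+FA and 19.4 ± 0.832 TPM in control (log2 -0.32 and -0.27, adjusted p = 0.00340 and 0.00200). Mbd5 had 3.89 ± 0.156 TPM with MMA, 3.35 ± 0.144 TPM with MMA+FA and 4.95 ± 0.203 TPM in control (log2 -0.28 and -0.45, adjusted p = 0.0139 and 0.000465), and without control replicate 2 it did not pass with MMA (adjusted p = 0.0515).

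Genes of oxidation and base excision moved in both directions, with 4 of 17 higher and 2 lower with MMA, 3 and 0 with FA, and 2 and 5 with MMA+FA (5 and 2 under median-ratio scaling). The shares of all tested genes were 3.85% and 16.5% with MMA, 3.67% and 8.7% with FA, and 6.67% and 32.6% with MMA+FA. The lower counts of the list did not exceed those shares. With 1 library left out, between 0 (without MMA replicate 3 or control replicate 3) and 3 genes of this list were higher with MMA. With FA 0 were called without FA replicate 1, FA replicate 3 or control replicate 3, and 4 higher and 3 lower without FA replicate 2. Ogt, the O-GlcNAc transferase that binds TET enzymes, had 44.7 ± 4.95 TPM with MMA, 47.0 ± 4.11 TPM with MMA+FA and 64.5 ± 1.88 TPM in control (log2 -0.52 and -0.45, adjusted p = 0.00319 and 0.00154). Idh2, which makes 2-oxoglutarate in mitochondria, was higher with MMA, FA and MMA+FA, at 94.96 ± 4.62, 96.7 ± 6.16 and 94.7 ± 6.94 TPM against 80.5 ± 3.68 TPM in control (adjusted p = 0.0225, 0.0244 and 0.0130). These calls held in 2, 2 and 4 of 6 fits with 1 library left out. Slc23a2, a vitamin C transporter, was lower with MMA and MMA+FA (log2 -0.24 and -0.29, adjusted p = 0.0156 and 0.00240), and the first did not pass under median-ratio scaling (adjusted p = 0.0677) or in 3 of 6 fits with 1 library left out. Gadd45b, a stress-response gene linked to demethylation in mouse brain, passed the interaction test (-0.61, SE 0.13, adjusted p = 0.0324), with 395 ± 29.6 TPM with MMA+FA and 470 ± 47.3 TPM with FA, and 508 ± 57.2 TPM with MMA and 394 ± 32.5 TPM in control. It passed in 4 of 12 fits with 1 library left out (adjusted p between 0.0169 and 0.0865).

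In the methionine cycle, which supplies and clears the methyl donor, 0 of 10 tested genes were higher and 3 lower with MMA, 0 and 1 with FA, and 1 and 6 with MMA+FA. Among all tested genes the shares were 3.85% and 16.5% with MMA, 3.67% and 8.7% with FA, and 6.67% and 32.6% with MMA+FA. Under median-ratio scaling the counts of the list were 3 and 2 with MMA, and 3 and 1 with MMA+FA. Mat2a, the main S-adenosylmethionine synthetase outside the liver, had 76.0 ± 2.62 TPM with MMA+FA and 61.1 ± 0.807 TPM in control (log2 0.31, SE 0.07, adjusted p = 0.00449). It was higher with MMA+FA than with MMA, which had 54.4 ± 4.16 TPM (log2 0.48, adjusted p = 0.000930). Ahcyl2, a relative of the enzyme that clears S-adenosylhomocysteine, was the gene called with FA alone (log2 -0.40, SE 0.08, adjusted p = 0.0138), except without FA replicate 1 (adjusted p = 0.0599).

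**Figure D5:**
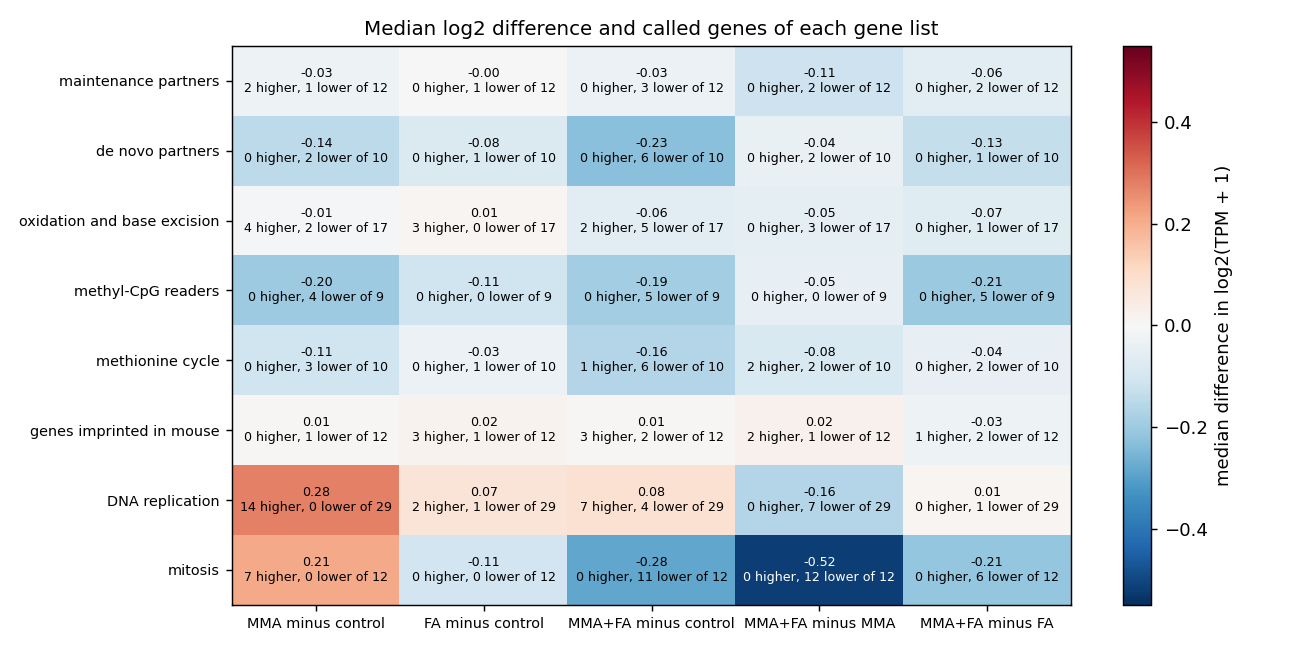
Median difference in log2(TPM + 1) of each gene list (rows; colour and first number) in 5 comparisons (columns), with the number of tested genes called higher and lower. DNA replication and mitosis genes have medians of 0.28 and 0.21 with MMA, and mitosis genes a median of -0.52 where FA was added to MMA.

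Genes that DNA methylation keeps silent or sets by parent of origin were followed as well. Of 15 germline genes that are methylated in mouse somatic tissue, 13 stayed under 1 TPM in every library. The others were Tex101, between 9.18 and 11.9 TPM, and Rhox5, between 4.64 and 9.24 TPM, and neither was called in any comparison. Of 12 tested genes that are imprinted in mouse, 0 were higher and 1 lower with MMA, 3 and 1 with FA, and 3 and 2 with MMA+FA (4 and 0 under median-ratio scaling). Among all tested genes the shares were 3.85% and 16.5% with MMA, 3.67% and 8.7% with FA, and 6.67% and 32.6% with MMA+FA. With FA 0 imprinted genes were called without FA replicate 1 or control replicate 3. Plagl1, a zinc finger gene, had 13.5 ± 0.681 TPM with FA, 13.6 ± 0.607 TPM with MMA+FA and 10.7 ± 0.567 TPM in control (log2 0.31 and 0.32, adjusted p = 0.0120 and 0.00182), and with FA it passed in 4 of 6 fits with 1 library left out. Mest had 14.5 ± 0.611 TPM with FA, 14.99 ± 0.777 TPM with MMA+FA and 12.4 ± 0.268 TPM in control (log2 0.21 and 0.25, adjusted p = 0.0286 and 0.00357), and with FA it passed in 1 of 6 such fits. Grb10, an adaptor of growth factor receptors, had 98.8 ± 2.71 TPM with MMA+FA and 116 ± 3.70 TPM in control (log2 -0.23, adjusted p = 0.000776), but did not pass under median-ratio scaling (-0.10, adjusted p = 0.0828). Allele-specific expression and methylation were not measured.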

How the data were processed

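Stranded libraries of polyadenylated RNA were made from H9c2 cells, 3 per group, per the labels' protocols. Per the submitters' processing notes, fastp and HISAT2 were used with the rat build mRatBN7.2. No source used here gives versions, settings or the annotation. The title of the deposited file names RSEM. The authors deposited gene-level TPM, so depth and counting error are unknown. All 12 sample columns were used.

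Genes whose mean reached 1 TPM were fitted as log2(TPM + 1) in limma 3.58.1 (R 4.3.3, data.table version 1.17.8), with group means as coefficients and the prior variance allowed to follow expression (8 residual and 4.32 prior degrees of freedom). P-values were adjusted over all 12263 genes. An exact permutation of 3 against 3 libraries cannot go below p = 0.1. The code was tested on simulated data. Plots used Python 3.11.15 and matplotlib 3.10.9. Members and gene lists were chosen with earlier results of these data known. Named were all members and, per list and comparison, at most 4 called genes with the smallest p. Uncalled genes of short lists could be named too, and a named gene is also given in other comparisons. Some genes that this rule names are left out here.

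Same-numbered libraries were not paired by origin in the labels, and their deviations from group means correlated between -0.124 and 0.107 over 18 pairs of libraries. The main fit has no replicate block.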

Additional observations from a re-analysis of the deposited data

How the results depend on the processing

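Of 810 member values under the alternatives, 716 kept their direction and side of the threshold, 38 lost a call, 10 gained one and 46 changed sign without being called in either fit. The number of members called changed as follows. With MMA against control it was 1, and 0 under median-ratio scaling, 2 with a mean of at least 0.1 TPM, 2 without the mean-variance trend, and 0 to 1 with 1 library left out. With MMA+FA against control it was 3, and 1 under median-ratio scaling and 1 to 3 with 1 library left out. With MMA+FA against MMA it was 1, and 0 under median-ratio scaling, at a mean of 0.1 TPM, without a filter and without the trend, and 0 to 1 with 1 library left out. With 1 library left out it was 0 to 3 for MMA+FA against FA, 0 to 1 for the interaction and 2 to 3 for MMA averaged over FA states, which fell to 1 under median-ratio scaling. For FA averaged over MMA states it was 0, and 1 without a filter and 1 without the trend. With FA alone it was 0 under every alternative run. The cause of these changes was not tested.

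Signs turned under median-ratio scaling for Dnmt3a (0.0423) and Tet2 (0.0128) with FA, Tet2 (0.0892) and Uhrf1 (0.0215) with MMA+FA, Uhrf1 (0.0684) for MMA averaged and Dnmt3a (0.00728) for FA averaged. Without mitochondrially encoded genes they turned for Tet2 with MMA+FA (0.0112) and Uhrf1 for MMA averaged (0.00854). With 1 library left out, log2 differences ranged from -0.0898 to 0.0564 (Dnmt3a) and -0.0696 to 0.0524 (Tet3) with FA, from -0.0208 to 0.0991 (Dnmt1) and -0.0626 to 0.0531 (Tet2) with MMA+FA, from -0.0329 to 0.107 (Tet3) for MMA+FA against MMA, and from -0.0392 to 0.0765 (Tet2) for MMA+FA against FA. The ranges were -0.128 to 0.0183 (Dnmt3a) and -0.0341 to 0.105 (Tet3) for the interaction, -0.0187 to 0.0531 (Dnmt1) and -0.0546 to 0.0185 (Uhrf1) for MMA averaged, and -0.0118 to 0.0724 (Dnmt1) and -0.0246 to 0.0539 (Tet3) for FA averaged.

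A fit with the replicate number as a block called 1, 0, 3, 1, 0, 0, 3 and 0 members in the 8 comparisons, as without it. Over all genes, fits to only the groups compared called 604 genes with FA, against 1517, and 23 for MMA+FA against FA, against 1288. With 1 library left out, the genes called over the whole table numbered 1173 to 1898 with MMA, 214 to 2571 with FA, 3605 to 4106 with MMA+FA, 868 to 1696 for MMA+FA against MMA, 357 to 2010 for MMA+FA against FA, 85 to 496 for the interaction, 2827 to 3902 for MMA averaged and 2006 to 3757 for FA averaged. Depth is unknown in TPM, and Dnmt3b and Tet1 lie near or below 1 TPM, where few reads may stand behind a value.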
